A study of Mus musculus with 25 samples.

Results

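CD8+ T cells that had infiltrated B16F10 melanomas and carried a conditional deletion of both Prdm1 and c-Maf (cDKO, 3 libraries) were compared with cells carrying the deletion of c-Maf alone (c-Maf cKO, 3 libraries). Both groups are targeted for c-Maf, and by their labels they differ in the deletion of Prdm1. The groups also stand in different runs of table columns and differ in marker signal of several cell types, as given below. The part of these in the differences cannot be told apart from that of Prdm1 loss. All genes with a deposited value of at least 1 in 3 or more of these 6 libraries were taken, which kept 10591 of the 23366 gene symbols of the table. The 6 libraries are part of a series of 25, in which 3 Prdm1 cKO and 16 wild-type libraries serve here as a second pair of groups without the c-Maf deletion. All cells came from C57BL/6 mice bearing B16F10 tumours, a transplanted melanoma line, and no further treatment is labelled. The labels name neither the line that deletes the genes nor the cells in which it acts, and give no age of the animals. Whether the libraries are from different animals is not labelled either; the p-values therefore reflect variation among libraries, which may be technical. Each library was made by an adapted SMART-Seq 2 method from 5 µL of lysate of bulk CD8+ T cells, of which about 2000 were lysed on average.

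Prdm1 encodes Blimp-1, a zinc finger repressor that effector lymphocytes switch on as they differentiate. In CD8+ T cells Blimp-1 is known to favour cytotoxic effector and terminally differentiated states and to restrain genes of naive and memory cells. Maf encodes c-Maf, a transcription factor of the bZIP family that is known for driving Il10 and other genes of regulatory and chronically stimulated T cells.

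Values are the authors' normalised expression signal, whose scale is not stated and whose sequencing depth is unknown. Fold changes are on the log2(value + 1) scale, which understates the change of genes with low values, and are given with their standard error. The summed signal was 440933 to 475956 in cDKO libraries and 431769 to 444817 in c-Maf cKO libraries, with 13798 to 14569 and 12749 to 14261 genes above 0. The ribosomal RNA gene Rn45s took 15.03% to 16.1% of the signal in cDKO and 9.62% to 14.2% in c-Maf cKO. The libraries of a group were not alike. Across the genes tested, cDKO A1 and A2 correlated at a Pearson r of 0.961 on the log2 scale, while cDKO C2 correlated with them at 0.894 and 0.893. With c-Maf cKO B10, B11 and C1, cDKO C2 correlated at 0.896, 0.908 and 0.899, each slightly above its values with A1 and A2. The c-Maf cKO libraries correlated with each other at 0.911 to 0.940. Signal of CD8 T cell genes (8 markers, summed) was 1308, 1555 and 2495 in cDKO A1, A2 and C2, against 2561, 2521 and 2497 in c-Maf cKO B10, B11 and C1. Cd4, the defining marker of the other main T cell lineage, was at 0 to 0.34 in all 6 libraries. Some other genes listed as markers of CD4 and regulatory T cells had signal, while Zbtb7b of that list was at most 1.58. The 7 markers, mostly Ctla4, summed to 36.7, 53.7 and 60.2 in cDKO, against 136.5, 90.6 and 108.9 in c-Maf cKO. Of 5 tested, 2 were called lower, among them Il2ra, which is also counted with the common gamma chain receptors below. With Cd4 and Zbtb7b this low, the sums and calls are not read as a change in CD4 or regulatory T cells. Foxp3 was at 0.67, 0 and 4.78 in cDKO and at 3.10, 0 and 1.70 in c-Maf cKO.

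The deleted gene was low where its deletion was labelled. Prdm1 signal was 1.18, 3.27 and 4.69 in cDKO A1, A2 and C2, against 20.3, 14.4 and 16.3 in c-Maf cKO B10, B11 and C1. Every cDKO library was below every c-Maf cKO library, and the cDKO mean of 3.05 ± 1.77 was 17.9% of the c-Maf cKO mean of 17.0 ± 3.0 (SD, n = 3 each). By exact permutation, two-sided, p was 0.10, the smallest that 3 libraries against 3 allow. In limma's fit across all genes, Prdm1 fell by 2.25 on the log2 scale (log2 fold change -2.25 ± 0.45, adjusted p = 0.00246). With the run of table columns that holds a library as covariate (the column set, described below), Prdm1 was not called (-1.55, adjusted p = 0.169). Prdm1 averaged 15.5 ± 5.31 in wild type (SD, n = 16), with which the c-Maf cKO values overlap.

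Maf, targeted in both groups, was below the minimum for testing. It was 0.18, 0.03 and 0 in cDKO A1, A2 and C2, against 0, 0 and 0.93 in c-Maf cKO B10, B11 and C1, and the means of 0.07 and 0.31 did not differ by exact permutation (two-sided, p = 1). The wild-type libraries ran from 0.03 to 0.95. The library labelled c-Maf cKO C1 therefore had a Maf signal within the wild-type range, and so low a signal separates the genotypes poorly. Without that library the difference turned round to 0.07 in favour of cDKO.

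Of the 10591 genes, 1228 (11.6%) were called at a Benjamini-Hochberg adjusted p under 0.05 by limma. Of these, 487 (4.60%) were higher and 741 (7.0%) were lower in cDKO. The lower genes moved further: 94 of them and 28 of the higher genes passed a log2 fold change of 2, and 24 and 3 passed 3. The libraries of the groups did not overlap for 469 of the genes called higher and 710 of those called lower. Over all genes tested, groups without overlap were found for 12.5% in the higher and 16.6% in the lower direction. The median log2 fold change of all genes was -0.03. Cell numbers per type were not measured, and in bulk libraries fewer cells of a type and less RNA per cell cannot be told apart.

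The number of calls depended on the libraries and the model more than the direction of the main genes did. Leaving out one library gave 703 calls without cDKO A1, 502 without cDKO A2, 1302 without cDKO C2, 698 without c-Maf cKO B10, 793 without B11 and 801 without C1. In the deposited table, runs of wild-type columns are each followed by the columns of 1 knockout group. The 3 column sets used here were read from this order. No label names them, and the letters of the library codes cut across them. As a covariate, the column set puts each group against the wild-type columns listed before it. With it 147 genes were called, 121 higher and 26 lower, and 101 of the 1228 calls were kept. The column set and the genotype cannot be told apart for a direct comparison of these groups. When libraries were rescaled to equal CD3 signal, the median of all genes was 0.52, and 1020 genes were called higher and 118 lower. The CD3 genes used for this include Cd3g, itself called lower in cDKO. List medians after this rescaling are to be read beside that 0.52.

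**Figure D1:**
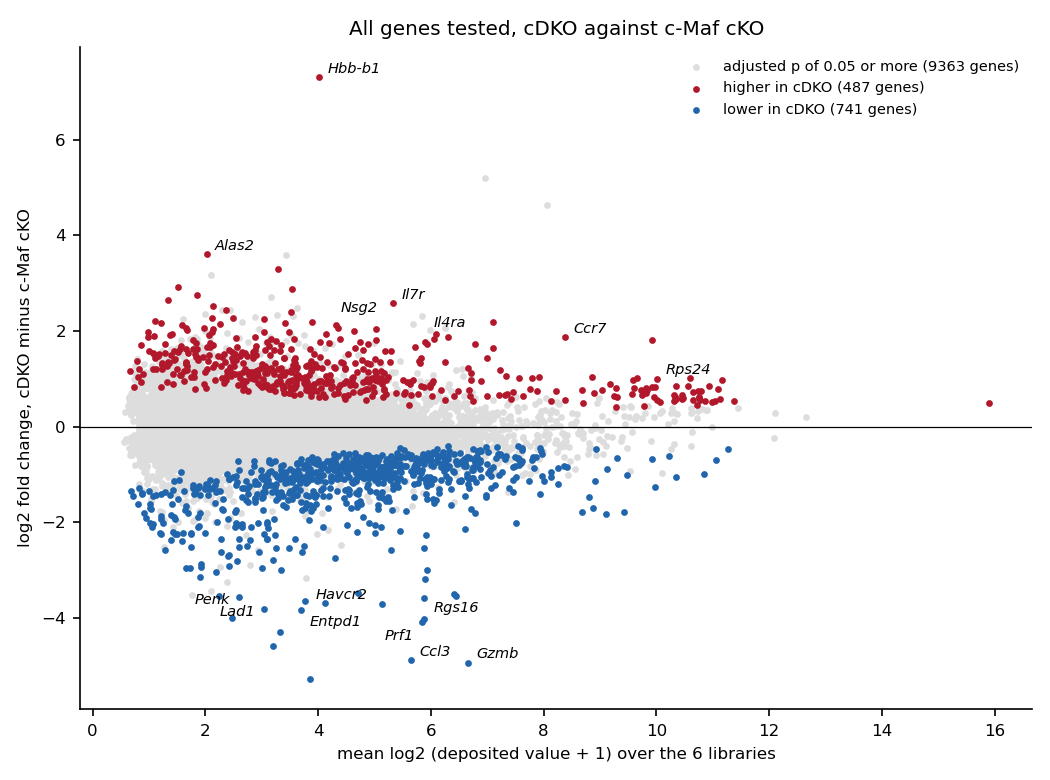
Log2 fold change of each of the 10591 genes tested (vertical axis, cDKO minus c-Maf cKO) against its mean log2 (deposited value + 1) over the 6 libraries (horizontal axis). Red points are the 487 genes called higher, blue points the 741 called lower and grey points those not called; the points furthest below 0 are called lower and include Gzmb and Ccl3, while Hbb-b1, a haemoglobin gene, lies furthest above 0.

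Part of the cytotoxic effector genes, Gzmb and Prf1 among them, were lower in cDKO. Of 18 members tested, 6 were called lower, 1 was called higher and 11 were not called, with a median log2 fold change of -1.32. Gzmb, the granule protease granzyme B, had a signal of 8.49, 12.5 and 47.3 in cDKO A1, A2 and C2, against 418, 535 and 789 in c-Maf cKO B10, B11 and C1. The highest cDKO library, C2, was far below the lowest c-Maf cKO library. The log2 fold change was -4.94 ± 0.72 (limma adjusted p = 0.000597), and Gzmb stayed called when the column set was a covariate (-3.80, adjusted p = 0.0317). Prf1, the pore-forming protein perforin, was at 10.2, 11.8 and 18.1 in cDKO, against 175, 246 and 302 in c-Maf cKO. Every cDKO library was far below every c-Maf cKO library, with a log2 fold change of -4.08 ± 0.78 (limma adjusted p = 0.00264). Prf1 was no longer called with the column set as covariate (-2.79, adjusted p = 0.147).

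Other granule genes gave a more uneven picture. Nkg7, a membrane protein of cytotoxic granules, was at 199, 325 and 765 in cDKO and at 1352, 1147 and 1333 in c-Maf cKO, without overlap (-1.79 ± 0.41, limma adjusted p = 0.00748). Its adjusted p was 0.0545 without cDKO A1. Gzmc, a granzyme gene close in sequence to other granzymes, was listed at 0 in cDKO A1 and A2 and at 11.7 in C2, against 53.7, 136 and 98.3 in c-Maf cKO. It was just past the threshold (-5.28 ± 1.71, limma adjusted p = 0.0489) and was not called without A1, A2, B10, B11 or C1 (adjusted p 0.158, 0.174, 0.0832, 0.124 and 0.106). Gzmm, which encodes granzyme M, went the other way, at 16.6, 24.0 and 25.3 in cDKO and at 8.30, 3.99 and 1.79 in c-Maf cKO (2.16 ± 0.62, limma adjusted p = 0.025). It was not called without A2, C2, B11 or C1 (adjusted p 0.0887, 0.058, 0.0638 and 0.117). The number of cytotoxic genes called lower was 2 without A1, 4 without A2, 9 without C2, 3 without B10, B11 or C1, and 2 with the column set as covariate.

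Co-inhibitory receptors fell in part. Of 18 tested, 7 were called lower and 0 higher, with a median of -1.18. Havcr2, which encodes Tim-3, was at 3.65, 2.05 and 3.04 in cDKO A1, A2 and C2, against 46.7, 45.5 and 50.6 in c-Maf cKO B10, B11 and C1. The libraries within each group lay close together and the groups were far apart (-3.65 ± 0.57, limma adjusted p = 0.000612). Lag3, a receptor for MHC class II, was at 5.76, 4.33 and 24.2 in cDKO, against 131, 104 and 148 in c-Maf cKO (-3.72 ± 0.68, limma adjusted p = 0.00181). Pdcd1, which encodes PD-1, was at 19.3, 16.9 and 42.9 in cDKO, against 279.9, 242 and 335 in c-Maf cKO (-3.50 ± 0.63, limma adjusted p = 0.00173). For both, C2 was the highest cDKO library and still below all c-Maf cKO libraries. Cd244, the receptor 2B4, was at 0.41, 0 and 4.41 in cDKO and at 9.57, 10.4 and 13.6 in c-Maf cKO (-2.61 ± 0.60, limma adjusted p = 0.00689; 0.0564 without cDKO A2). With the column set as covariate Havcr2 stayed called (-2.82, adjusted p = 0.032), while Lag3 (-2.85, adjusted p = 0.109) and Pdcd1 (-2.42, adjusted p = 0.129) did not; 1 receptor of the list was called then. The count of receptors called lower was 3 without cDKO A2 and 5 to 8 without any other library.

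Of the co-stimulatory receptors, 6 of 13 were called lower and 1 higher, with a median of -0.74. Tnfrsf9, the TNF receptor family member 4-1BB, was at 7.82, 13.8 and 37.3 in cDKO, against 180.5, 195 and 239 in c-Maf cKO (-3.58 ± 0.63, limma adjusted p = 0.00157). Tnfrsf4, which encodes OX40, was at 5.25, 3.28 and 16.6 in cDKO, against 105, 65.3 and 93.8 in c-Maf cKO (-3.49 ± 0.66, limma adjusted p = 0.00229). Both are induced on activated T cells, and in neither did the groups overlap. Slamf6, a SLAM family receptor that marks stem-like cells, was the one higher member, at 40.5, 52.6 and 53.1 in cDKO against 12.4, 22.2 and 8.72 in c-Maf cKO (1.77 ± 0.45, limma adjusted p = 0.012). It was not called without A2 or C1 (adjusted p 0.0518 and 0.0641). Icos, a further co-stimulatory receptor, showed no such gap, with means of 35.0 ± 14.5 in cDKO and 35.5 ± 4.93 in c-Maf cKO (SD, n = 3 each). The count of co-stimulatory genes called lower was 2 without A1, A2 or C1, 3 without B10 and 0 with the column set as covariate.

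The ectonucleotidases that turn extracellular ATP into adenosine were called in opposite directions. Entpd1 encodes CD39, which removes phosphates from ATP. It was at 1.76, 2.15 and 3.65 in cDKO A1, A2 and C2, against 40.3, 40.5 and 67.0 in c-Maf cKO B10, B11 and C1. All cDKO libraries were at a small part of any c-Maf cKO library (-3.83 ± 0.48, limma adjusted p = 0.00011), also with the column set as covariate (-3.16, adjusted p = 0.0055). Nt5e encodes CD73, which makes adenosine from AMP. It was at 20.9, 22.2 and 20.8 in cDKO and at 7.13, 6.99 and 1.79 in c-Maf cKO, higher in each cDKO library (1.98 ± 0.45, limma adjusted p = 0.00628). With the column set as covariate Nt5e was not called (1.41, adjusted p = 0.199). In the same list of 12 genes of the IL-10, IL-27 and purine pathways, 2 were called lower, Entpd1 and the IL-10 receptor chain Il10ra, and 3 higher, among them Nt5e and Il6st. Il10ra was at 8.27, 7.87 and 15.9 in cDKO and at 48.5, 43.1 and 44.3 in c-Maf cKO (-2.05 ± 0.41, limma adjusted p = 0.00288). Il6st encodes gp130, the shared signalling chain of the IL-6 and IL-27 receptors. It was at 20.2, 15.2 and 20.1 in cDKO and at 6.85, 8.91 and 4.19 in c-Maf cKO (1.39 ± 0.32, limma adjusted p = 0.00693). Neither Il10ra (adjusted p = 0.124) nor Il6st (0.249) was called with the column set as covariate.

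Some chemokines and their receptors were lower as well, with 9 of 18 called lower, 0 higher, 9 not called and a median of -1.43. Ccl3, an inflammatory chemokine of the CC family, was at 4.47, 2.40 and 40.9 in cDKO A1, A2 and C2, against 182, 250.1 and 438 in c-Maf cKO B10, B11 and C1. Its log2 fold change was -4.89 ± 0.82 (limma adjusted p = 0.00112), and C2 again stood above the other cDKO libraries. Ccl4, a close relative of Ccl3, was at 13.5, 19.8 and 54.2 in cDKO, against 288, 235 and 379 in c-Maf cKO (-3.54 ± 0.58, limma adjusted p = 0.000956). Cxcr6, a receptor of T cells that reside in tissue, was at 8.68, 12.8 and 56.7 in cDKO, against 185, 173 and 176 in c-Maf cKO (-3.18 ± 0.61, limma adjusted p = 0.00246). Xcl1, which attracts cross-presenting dendritic cells, divided the cDKO group: it was at 3.96 and 6.85 in A1 and A2, and at 103 in C2, within the c-Maf cKO values of 89.7, 109 and 86.9. Its call (-2.59 ± 0.73, limma adjusted p = 0.0247) was lost without A1, A2, B10, B11 or C1 (adjusted p 0.157, 0.139, 0.0595, 0.0695 and 0.0546). The number of genes called lower in this list was 5 without A1, A2 or C1 and 3 with the column set as covariate.

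**Figure D2:**
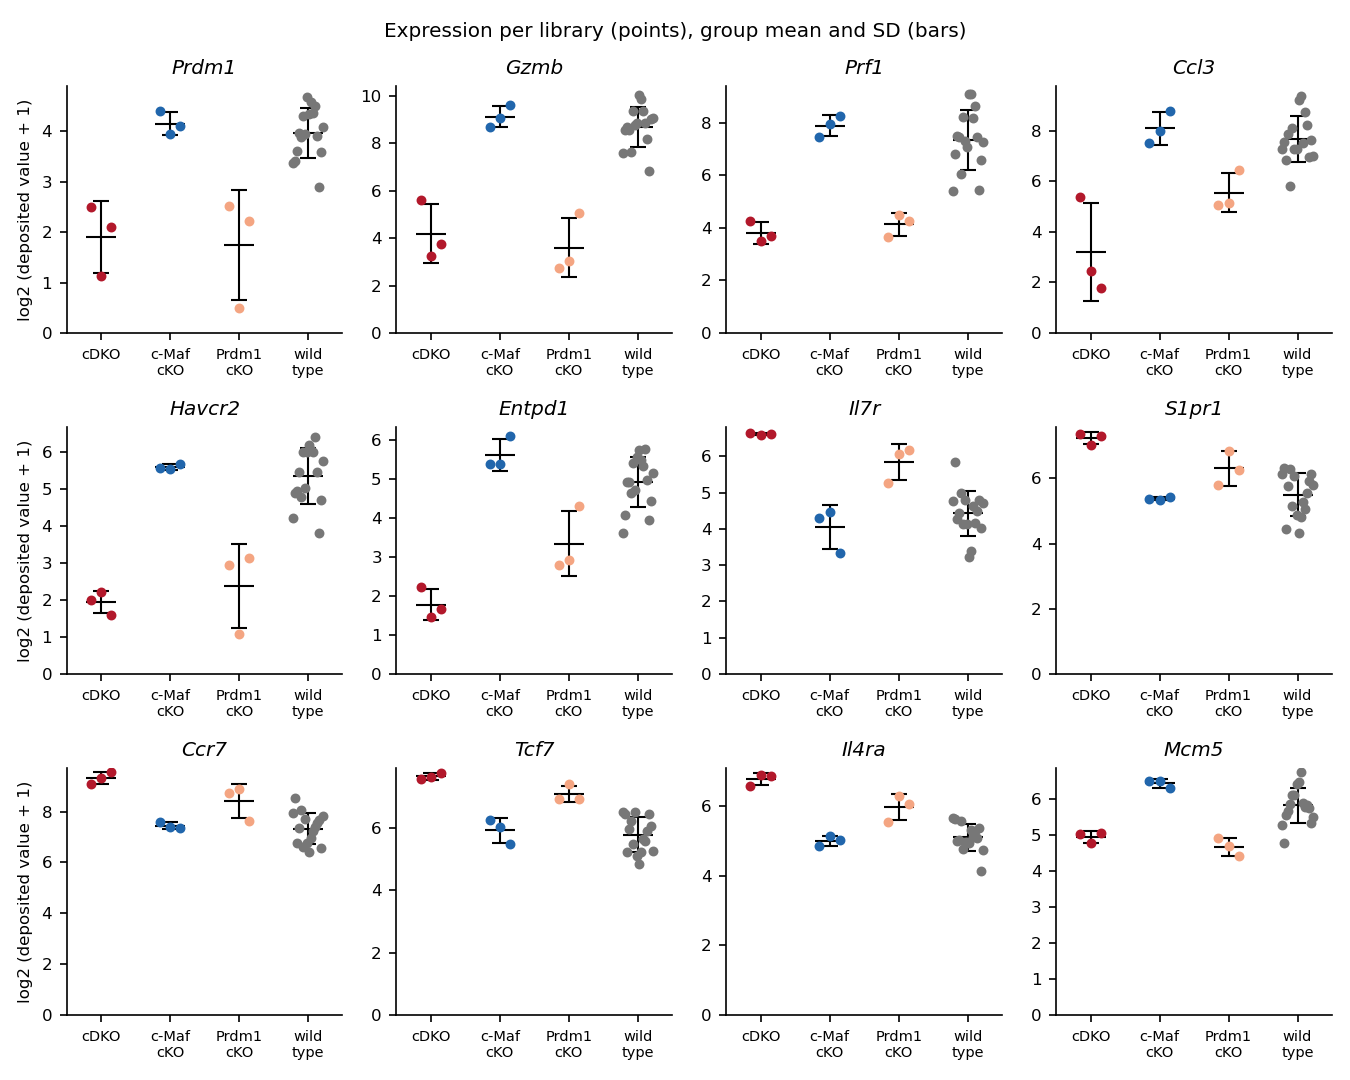
Log2 (deposited value + 1) of 12 genes in every library, with groups from left to right as cDKO, c-Maf cKO, Prdm1 cKO and wild type. Points are libraries, horizontal bars the group means and error bars the SD (n = 3, 3, 3 and 16). In all 12 panels the 3 cDKO libraries lie entirely above or entirely below the 3 c-Maf cKO libraries. The 12 genes were picked from called genes with their values known, and over all genes tested 29.1% had groups without overlap.

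Most of the listed genes of naive, memory and stem-like T cells were higher in cDKO. Of 21 tested, 14 were called higher, 0 lower and 7 not called, and the median log2 fold change was 1.73. Il7r, the receptor for the survival cytokine IL-7, was at 96.0, 96.5 and 98.6 in cDKO A1, A2 and C2, against 18.7, 21.3 and 9.17 in c-Maf cKO B10, B11 and C1. The cDKO libraries were nearly equal to each other and all far above c-Maf cKO (2.57 ± 0.44, limma adjusted p = 0.00102). Il7r was the 1 gene of this list that stayed called with the column set as covariate (1.98, adjusted p = 0.0428). The count of members called higher was 11 to 13 with any one library left out.

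The genes called higher included transcription factors and homing receptors. Other transcription factors of the list, namely Eomes, Myb, Foxo1, Klf2 and Bcl6, were not called (log2 fold changes -0.28, 0.20, 0.56, 1.06 and 1.07), and they were named after their values were seen. Tcf7, which encodes the naive and stem-like factor TCF-1, was at 197, 218 and 187 in cDKO, against 75.2, 65.0 and 43.9 in c-Maf cKO (1.73 ± 0.38, limma adjusted p = 0.00527; 1.08 and adjusted p = 0.207 with the column set as covariate). Satb1, a chromatin organiser of T cell development, was at 48.6, 52.7 and 26.8 in cDKO, against 8.68, 10.6 and 8.03 in c-Maf cKO (2.06 ± 0.38, limma adjusted p = 0.00158). Foxp1, a forkhead factor that maintains quiescence in naive T cells, was at 34.8, 32.7 and 31.3 in cDKO, against 14.4, 14.8 and 11.4 in c-Maf cKO (1.23 ± 0.25, limma adjusted p = 0.00264). The cDKO libraries did not overlap with c-Maf cKO for any of the 3 factors. Ccr7, the chemokine receptor for entry into lymph nodes, was at 633, 753 and 549 in cDKO, against 192, 169 and 161 in c-Maf cKO (1.88 ± 0.43, limma adjusted p = 0.00721). S1pr1, which guides lymphocytes out of tissue, was at 129.7, 159 and 165 in cDKO, against 40.2, 39.4 and 42.1 in c-Maf cKO (1.86 ± 0.44, limma adjusted p = 0.00861). Of 10 homing and egress genes tested, 3 were called, all higher, Ccr7 and S1pr1 among them. Of 9 tested genes reported elsewhere as repressed by Blimp-1, 5 were called higher and 0 lower; they overlap with the naive and memory list.

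Cytokine receptors that share the common gamma chain gave calls both ways, 3 higher and 2 lower of 10 genes tested. Il4ra, the alpha chain of the IL-4 receptor, was at 117, 116 and 94.2 in cDKO A1, A2 and C2, against 27.7, 34.2 and 31.9 in c-Maf cKO B10, B11 and C1. It rose in every cDKO library (1.77 ± 0.28, limma adjusted p = 0.000597) and stayed called with the column set as covariate (1.94, adjusted p = 0.00609). Il2ra, the inducible chain of the IL-2 receptor, was at 0.66, 0.59 and 6.68 in cDKO and at 7.81, 9.54 and 7.17 in c-Maf cKO, so that C2 came close to the c-Maf cKO libraries. Its call (-1.74 ± 0.53, limma adjusted p = 0.0328) was lost without A1, A2, B10, B11 or C1 (adjusted p 0.157, 0.181, 0.0756, 0.0952 and 0.064), and the list then held 0 genes called lower.

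Promoter windows were searched for the core letters of a Blimp-1 site. Windows of 300 bases, from 250 before to 50 after the gene start, were taken from RefSeq on build GRCm38.p6, a later build than the mm9 of the expression table. They were found for 8517 of the 10591 genes tested, 588 of them by an older symbol. The letters AGNGAAAG were searched on both strands, and so was TGCTGA, the half-site of c-Maf, which can share an end base with the first motif. Of the 8517 windows, 8.92% held AGNGAAAG and 17.6% TGCTGA, beside 9.91% and 21.7% of all 27025 RefSeq windows. The shares among called genes are not given, because under 80% of those genes had a window. Of the 71 named genes with a window, 4 held AGNGAAAG, namely Alas2, Apol11b, Il4ra and Rps28, and 19 held TGCTGA; the first count is not above the share in all tested windows, and nothing is read from it. The windows of the 3 genes other than Alas2 are shown, as genes called higher that differ in function, with the letters that match AGNGAAAG on either strand in capitals. The letters alone are shown, and whether Blimp-1 binds there was not measured.
Apol11b, chr15:77643237-77643536, minus strand: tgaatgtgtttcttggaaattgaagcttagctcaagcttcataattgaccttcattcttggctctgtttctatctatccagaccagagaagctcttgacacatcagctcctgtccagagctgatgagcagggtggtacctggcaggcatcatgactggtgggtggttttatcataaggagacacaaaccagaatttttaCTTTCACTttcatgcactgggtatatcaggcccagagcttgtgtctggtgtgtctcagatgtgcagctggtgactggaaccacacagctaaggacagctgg
Il4ra, chr7:125552021-125552320, plus strand: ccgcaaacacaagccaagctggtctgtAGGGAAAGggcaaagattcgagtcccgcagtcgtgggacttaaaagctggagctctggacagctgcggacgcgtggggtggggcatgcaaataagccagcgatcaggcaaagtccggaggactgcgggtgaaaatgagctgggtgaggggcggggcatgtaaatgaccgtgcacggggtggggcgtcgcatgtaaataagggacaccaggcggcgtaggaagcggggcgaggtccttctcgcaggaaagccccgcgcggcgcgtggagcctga
Rps28, chr17:33824513-33824812, minus strand: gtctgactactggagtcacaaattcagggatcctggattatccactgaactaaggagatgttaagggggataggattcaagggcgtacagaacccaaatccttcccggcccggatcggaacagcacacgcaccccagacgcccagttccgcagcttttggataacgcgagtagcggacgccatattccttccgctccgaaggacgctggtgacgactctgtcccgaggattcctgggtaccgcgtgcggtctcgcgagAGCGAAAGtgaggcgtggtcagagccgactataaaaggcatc
The match in Apol11b is on the opposite strand and starts 51 bases before the gene start. The match in Il4ra starts 223 bases before the start, and that in Rps28 8 bases after it.

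Among 21 effector and exhaustion transcription factors, 5 were called lower, Prdm1 itself included, and 0 higher, with a median of -0.45. After CD3 rescaling the median was 0.17, beside 0.52 for all genes. Nr4a2, an orphan nuclear receptor induced by T cell receptor signals, was at 13.5, 13.5 and 14.7 in cDKO A1, A2 and C2, against 52.7, 59.9 and 104 in c-Maf cKO B10, B11 and C1 (-2.23 ± 0.39, limma adjusted p = 0.00103). Tox, a factor of exhausted T cells, was at 12.6, 10.6 and 10.1 in cDKO, against 51.5, 48.6 and 64.4 in c-Maf cKO (-2.20 ± 0.54, limma adjusted p = 0.0104). Bhlhe40, a helix-loop-helix factor of activated T cells, was at 86.0, 95.4 and 153 in cDKO, against 297, 238 and 307 in c-Maf cKO (-1.36 ± 0.32, limma adjusted p = 0.008). For each of them the groups did not overlap, and none of the list was called with the column set as covariate (Nr4a2 -1.53, adjusted p = 0.107). Irf8, an interferon regulatory factor known best from myeloid cells, is outside that list and among the largest decreases. It was at 1.76, 3.35 and 8.33 in cDKO, against 45.7, 71.5 and 69.9 in c-Maf cKO (-3.69 ± 0.56, limma adjusted p = 0.000603; -3.29 and 0.0197 with the column set as covariate).

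About as many cell cycle genes were called lower as were not called. Of 23 S phase genes 12 were called lower, and of 23 G2 and M phase genes 11, with 0 higher in either list and medians of -1.03 and -1.08. Mcm5, a subunit of the replicative helicase, was at 26.3, 32.6 and 31.7 in cDKO A1, A2 and C2, against 89.4, 90.7 and 78.1 in c-Maf cKO B10, B11 and C1 (-1.48 ± 0.33, limma adjusted p = 0.00501). Cdc20, an activator of the anaphase-promoting complex, was at 17.7, 10.1 and 17.0 in cDKO, against 69.5, 52.4 and 27.9 in c-Maf cKO (-1.62 ± 0.32, limma adjusted p = 0.00264). Neither gene overlapped between the groups. Without cDKO A2, 3 genes of each list were called lower; without A1, 7 S phase genes; without C1, 7 S phase genes; without B10 and B11, 3 and 4 genes of the G2 and M phase list. None of either list was called with the column set as covariate, and none after rescaling to CD3 signal.

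Most genes for cytosolic ribosomal proteins were called higher, by small steps. Of 82 tested, 51 were called higher, 1 lower and 30 not called, and the median log2 fold change was 0.54. Rps24 was at 1295, 1439 and 1672 in cDKO A1, A2 and C2, against 789, 709.6 and 692 in c-Maf cKO B10, B11 and C1 (1.0 ± 0.16, limma adjusted p = 0.000597). Rps28 was at 1016, 1108 and 1321 in cDKO, against 616, 528 and 550.0 in c-Maf cKO (1.02 ± 0.16, limma adjusted p = 0.000612). Both are proteins of the small ribosomal subunit, and each cDKO library was above each c-Maf cKO library. Rpl12 (1.01 ± 0.16) and Rps21 (1.03 ± 0.16) moved by the same amount. The gene called lower, named after its value was seen, was Rpl7l1 (-0.58 ± 0.18, limma adjusted p = 0.0333), a ribosome-like protein of the nucleolus. With the column set as covariate 57 members were called higher, and 37 to 48 were called higher with one library left out. Ribosomal protein genes have many processed pseudogenes, between which the authors' counting could split reads. The larger share of Rn45s signal in cDKO, given above, is a measure of the same libraries whose part in these values was not tested.

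**Figure D3:**
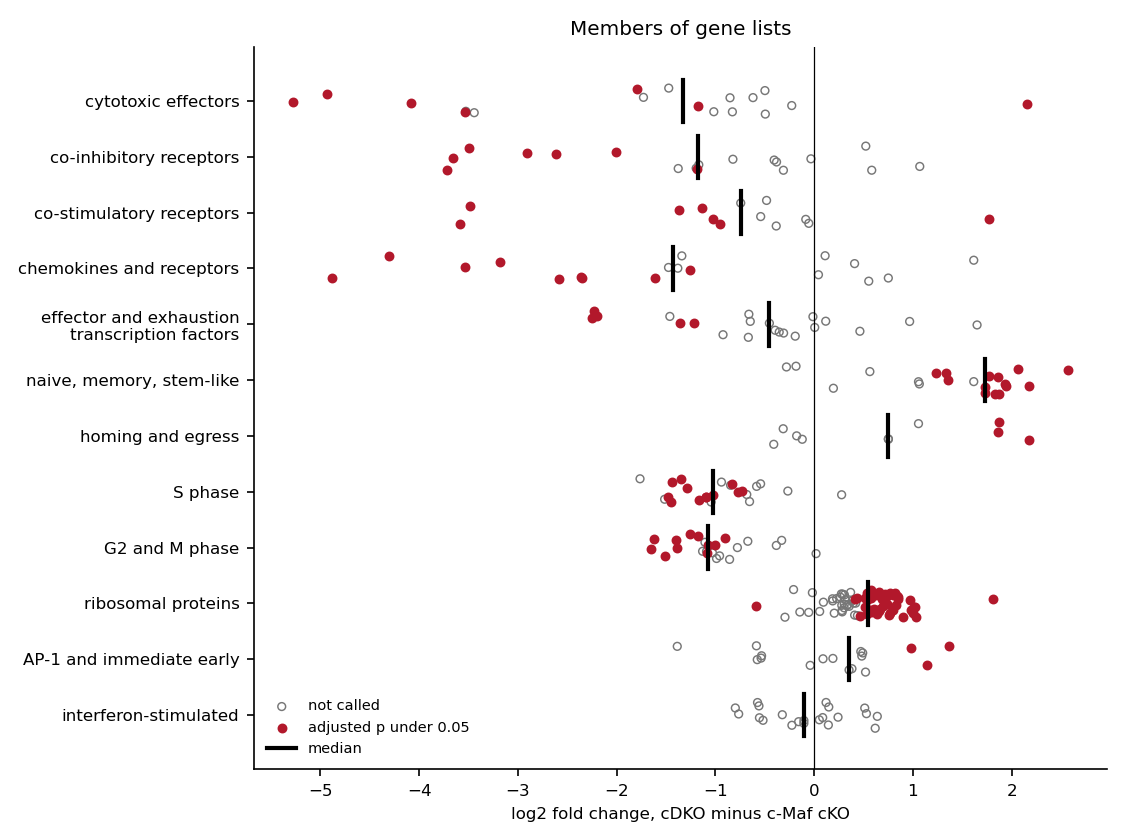
Log2 fold change (horizontal axis, cDKO minus c-Maf cKO) of the members of 12 gene lists, one point per gene, filled where limma's adjusted p was under 0.05, with the median of each list as a bar. The naive, memory and stem-like list has its median at 1.73 with 14 filled points to the right of 0, and the chemokine list its median at -1.43 with 9 filled points to the left.

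Smaller groups of genes changed in part. In the Bcl2 family, 5 of 13 were called lower and 1 higher, with a median of -0.40. After CD3 rescaling this median was 0.16, beside 0.52 for all genes. Bcl2, which protects long-lived T cells from death, was at 40.5, 57.5 and 66.4 in cDKO, against 17.1, 26.0 and 19.1 in c-Maf cKO (1.35 ± 0.33, limma adjusted p = 0.00861). Bcl2a1d and Bcl2a1b, near-identical copies of the survival gene A1 between which reads may be split, were lower in cDKO (-2.28 ± 0.41 and -1.73 ± 0.34, limma adjusted p = 0.00141 and 0.00241). Each was without overlap between the groups. The count of family members called lower was 3 without any one of the 6 libraries and 0 with the column set as covariate. Among 17 AP-1 and immediate early genes 3 were called higher, with Jun at 74.6, 112 and 82.3 in cDKO and 30.3, 24.4 and 51.1 in c-Maf cKO (1.37 ± 0.39, limma adjusted p = 0.0239). Jun was not called without A2, B10 or B11 (adjusted p 0.115, 0.0762 and 0.105), and the count was 0 without A2, B10 or B11 and 1 without A1.

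Metabolic and chromatin genes were called in small numbers, beside 11.6% called and 7.0% called lower among all genes tested. The glycolysis and chromatin counts are near the 11.6%, and nothing is read from them. The cholesterol count is above it. The medians of the glycolysis, cholesterol and chromatin lists were -0.22, -0.48 and -0.48, and 0.42, 0.11 and 0.14 after CD3 rescaling. Relative to the median of all genes they stayed lower. They were at -0.19, -0.46 and -0.45 before rescaling and at -0.10, -0.41 and -0.38 after it. Slc2a3, the glucose transporter Glut3, was at 6.27, 10.3 and 11.02 in cDKO, against 28.3, 32.2 and 34.5 in c-Maf cKO (-1.71 ± 0.36, limma adjusted p = 0.00395). It was 1 of the 2 called of 19 glycolysis and glucose uptake genes, both lower. The number called lower was 1 without C2, B10, B11 or C1, and 0 with the column set as covariate. Without C2, 1 gene of this list was also called higher. Of 17 cholesterol genes 4 were called lower. That count was 1 without A2 or B10 and 2 without B11. Of 9 chromatin repressors that work with Blimp-1, 1 was called lower, Hdac1 (-1.06 ± 0.34, limma adjusted p = 0.0396), and it was not called without A1, A2, B10, B11 or C1 (adjusted p 0.142, 0.148, 0.0831, 0.116 and 0.0735).

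The remaining lists stand beside 11.6% called and 7.0% called lower among all genes tested. The T cell receptor and heat shock counts are near the share called lower, and nothing is read from them. The count of the tissue residency and integrin list is above it. Of 21 interferon-stimulated genes and 12 killer cell lectin-like receptors, 0 were called by limma, with 1 and 2 at an unadjusted p under 0.05. Their medians were -0.10 and -0.24, and 0.52 and 0.13 after CD3 rescaling, beside 0.52 for all genes. Without C2, 2 of the lectin-like receptors were called lower. Of 18 genes of the T cell receptor complex and its signalling 1 was called, Cd3g, lower (-1.21 ± 0.37, limma adjusted p = 0.0361), with 0 called without A1, A2, B10, B11 or C1 and 3 without C2. Of 14 tissue residency and integrin genes 4 were called lower, with a median of -0.65, and 2 without A2, B10, B11 or C1. Of 12 heat shock genes 1 was called lower, and 0 were called lower without A1, A2, C2, B11 or C1. In that list 1 was called higher without C2. Of 6 effector cytokines 1 was called lower, Xcl1, which is described above. Only 2 of the genes reported elsewhere as activated by c-Maf reached the minimum for testing, and neither was called.

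The largest decreases outside these lists were taken among genes without overlap between the groups. Lad1, which encodes the anchoring filament protein ladinin, was at 2.54, 1.15 and 0.36 in cDKO A1, A2 and C2, against 36.8, 29.1 and 24.8 in c-Maf cKO B10, B11 and C1 (-3.82 ± 0.48, limma adjusted p = 0.00011; -3.39 and 0.0055 with the column set as covariate). Rgs16, which ends G protein signals of chemokine receptors, was at 9.45, 17.7 and 14.7 in cDKO, against 260.0, 176 and 281 in c-Maf cKO (-4.02 ± 0.63, limma adjusted p = 0.0007). Penk, the precursor of the enkephalin peptides, was at 2.19, 0 and 0.66 in cDKO, against 29.4, 23.4 and 11 in c-Maf cKO (-3.57 ± 0.80, limma adjusted p = 0.00659). With the column set as covariate neither Rgs16 (adjusted p = 0.0689) nor Penk (0.0875) was called, and Penk was also not called with marker scores (0.0848) or a pseudocount of 10 (0.105). Serpine2, a serine protease inhibitor, and Utf1, a chromatin-bound factor known from embryonic stem cells, fell as far (-4.60 ± 0.91 and -4.01 ± 0.61, limma adjusted p = 0.00326 and 0.000597). With the column set Utf1 stayed called (0.0343) and Serpine2 did not (0.178). Lad1, Penk, Serpine2 and Utf1 met the minimum for testing only through the c-Maf cKO libraries, where they are high.

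The largest increases hold genes of red blood cells. Hbb-b1, a beta globin gene that has near-identical copies, was at 238, 436 and 79.8 in cDKO A1, A2 and C2, against 0, 0 and 1.12 in c-Maf cKO B10, B11 and C1 (7.31 ± 1.76, limma adjusted p = 0.0103). Alas2, the erythroid enzyme of haem synthesis, was at 20.2, 58.6 and 1.25 in cDKO, against 0.23, 0.22 and 0.05 in c-Maf cKO (3.61 ± 1.08, limma adjusted p = 0.0321). Slc4a1, the anion exchanger band 3 of red cells, was at 5.46, 13.6 and 1.66 in cDKO and listed at 0 in all c-Maf cKO libraries (limma adjusted p = 0.000597). Alas2 and Slc4a1 met the minimum for testing only through the cDKO libraries, where they are high, so their calls are no separate support. The cDKO libraries A1 and A2 carried most of this signal: 7 erythroid markers summed to 2275, 4254 and 463 in cDKO, against 133, 15.8 and 84.0 in c-Maf cKO, and 3 of the 5 markers tested were called higher (1 without A2). With marker scores that include Alas2 as covariates, its log2 fold change turned to -0.16 (adjusted p = 0.906) and Hbb-b1 was not called (adjusted p = 0.38). Hbb-b1 was also not called without A2 (adjusted p = 0.0544). Alas2 was not called without A1, A2, B10, B11 or C1 (adjusted p 0.107, 0.193, 0.075, 0.0715 and 0.0818).

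Other genes were among the largest increases. Nsg2, a neuronal endosome protein, was at 33.3, 45.2 and 45.0 in cDKO, against 8.38, 9.54 and 7.78 in c-Maf cKO (2.13 ± 0.41, limma adjusted p = 0.00194). Tnfrsf26, a decoy receptor of the TNF family, was at 27.5, 26.2 and 40.8 in cDKO, against 5.61, 5.17 and 7.35 in c-Maf cKO (2.19 ± 0.35, limma adjusted p = 0.000603; 0.0584 with the column set as covariate). Syt6, a synaptotagmin, was at 2.91, 5.11 and 3.11 in cDKO and listed at 0 in all c-Maf cKO libraries (limma adjusted p = 0.00209). Apol11b, a gene of the apolipoprotein L family, was at 9.22, 18.6 and 1.40 in cDKO and at 0, 0 and 0.09 in c-Maf cKO (2.93 ± 0.62, limma adjusted p = 0.00386). Syt6 and Apol11b met the minimum for testing only through the cDKO libraries, where they are high, so their calls are no separate support. Within cDKO, A1 and A2 were the high libraries for Apol11b, as they were for the erythroid markers. Apol11b was not called with marker scores or the column set as covariates (adjusted p = 0.296 and 0.143).

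Other cell types left signal in these libraries. Melanoma pigment genes (10 markers) summed to 1729, 1384 and 127 in cDKO A1, A2 and C2, against 691, 372 and 21.8 in c-Maf cKO B10, B11 and C1, with 0 of 10 called by limma and 0 at an unadjusted p under 0.05. The 17 macrophage and monocyte markers summed to 627, 701 and 1281 in cDKO, against 806, 1072 and 2127 in c-Maf cKO, with 0 of 14 tested called by limma and 3 at an unadjusted p under 0.05. The 12 dendritic cell markers summed to 183, 113 and 389 in cDKO, against 186, 92.8 and 1637 in c-Maf cKO. Library c-Maf cKO C1 was the highest for both myeloid lists. Most of the macrophage sum outside C1 was Ly6c2, which activated CD8 T cells also express, at 381, 542 and 1024 in cDKO and 587, 774 and 891 in c-Maf cKO. The macrophage gene C1qb was at 10.2, 0 and 7.77 in cDKO, against 19.3, 21.8 and 151 in c-Maf cKO. Of 8 dendritic markers tested 1, Zbtb46, was called lower, and of the B cell markers Cd22 and Cd79b were called higher while Pax5, which defines B cells, was at 0 in all 6 libraries. These genes, Ly6c2 and C1qb were named after their values were seen, and neither B cell gene was called without A2, C2 or B10, and 1 of them without C1. The part of these cell types in the gene changes above was not tested beyond the fit with macrophage, erythroid and melanoma scores as covariates, which called 729 genes, 609 of them among the 1228.

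**Figure D4:**
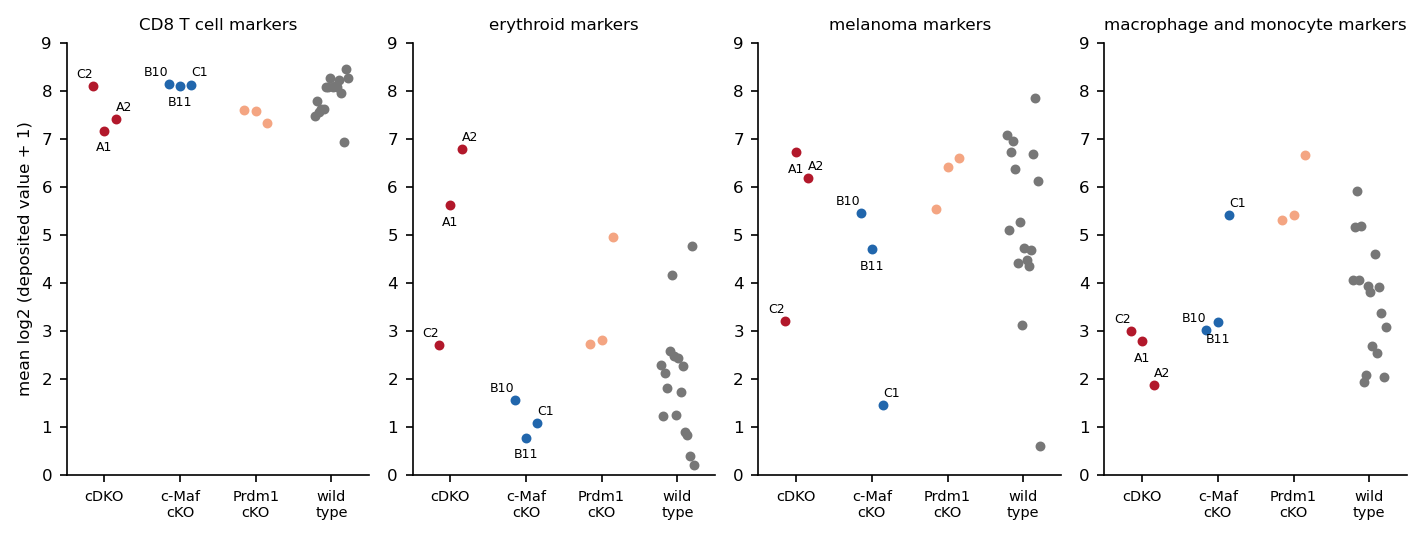
Mean log2 (deposited value + 1) of CD8 T cell, erythroid, melanoma, and macrophage and monocyte markers in each library (points), by group, with library codes for cDKO and c-Maf cKO. The cDKO libraries A1 and A2 are low for CD8 markers and high for erythroid and melanoma markers, and c-Maf cKO C1 is high for macrophage markers.

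In cDKO, library C2 lay between the other cDKO libraries and c-Maf cKO for many of the decreased genes. It was the highest of the 3 cDKO libraries for 442 of the 741 genes called lower (59.6%), against 40.1% of all genes tested, and the lowest for 221 of the 487 called higher (45.4%), against 38.6%. Without C2, 806 genes were called lower and 496 higher, and 969 of the 1228 calls were kept.

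The same gene was also removed from cells with intact c-Maf. Prdm1 cKO libraries against wild type share no library with the comparison above and so give a separate measure of Prdm1 loss. Over the same 10591 genes, 129 (1.22%) were called higher and 223 (2.11%) lower in Prdm1 cKO. Of the 487 genes called higher in cDKO, 439 (90.1%) had a higher mean in Prdm1 cKO than in wild type, and of the 741 called lower, 664 (89.6%) had a lower mean. The share over all genes tested was 66.3%. Recomputed under the alternatives, the share of called genes with the same direction stayed near the main one in 14 and moved further in 2. The Prdm1 cKO libraries all belong to 1 column set, while the wild-type libraries come from all 3. In Prdm1 cKO 135 of the 1228 genes were called in the same direction and 0 in the opposite one. Across all genes, both sets of log2 fold changes had a Pearson r of 0.41 and a Spearman rho of 0.45, as a description over genes, which are not independent replicates. Any part that RNA of other cell types plays in this likeness was not tested. The median of the erythroid markers was 3.61 in cDKO minus c-Maf cKO and 1.51 in Prdm1 cKO minus wild type, that of the melanoma markers 1.69 and 0.92, and that of the CD8 T cell markers -0.53 and -0.41, each with the same sign in both. The medians of the macrophage markers (-1.31 and 2.43) and the dendritic cell markers (-0.40 and 2.22) had opposite signs.

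**Figure D5:**
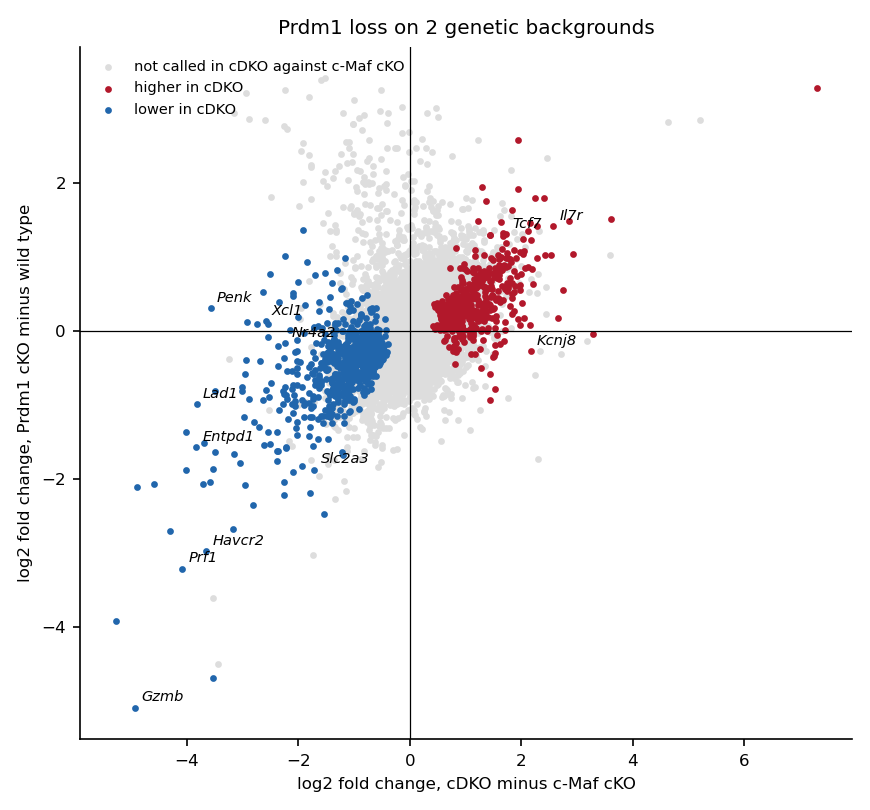
Log2 fold change of each gene on loss of Prdm1 with c-Maf targeted (horizontal axis, cDKO minus c-Maf cKO) and with c-Maf intact (vertical axis, Prdm1 cKO minus wild type). Genes called higher in cDKO are red and those called lower are blue; 89.8% of the called genes lie on the same side of 0 on both axes, while Penk, Nr4a2 and Kcnj8 lie near 0 on the vertical axis.

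Values on both backgrounds stand side by side for some genes. Gzmb changed by -4.94 ± 0.72 in cDKO minus c-Maf cKO and by -5.10 ± 0.55 in Prdm1 cKO minus wild type (limma adjusted p = 4.79e-05 in the second). Havcr2 changed by -3.65 ± 0.57 and -2.97 ± 0.44, and Tcf7 by 1.73 ± 0.38 and 1.31 ± 0.29. Of the cytotoxic list, 9 of 18 were called lower in Prdm1 cKO with a median of -1.53, and of the naive, memory and stem-like list 8 of 21 were called higher with a median of 1.03. The co-inhibitory list had its median at -0.08 and 2 of 18 called lower in Prdm1 cKO, beside -1.18 and 7 in cDKO.

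Whether the effect of losing Prdm1 differs between the backgrounds was tested as a difference of the 2 log2 fold changes. By limma 0 of 10591 genes passed, with 1238 at an unadjusted p under 0.05, and the alternatives gave 0 to 28 genes. A test that misses the threshold does not show that the effects are alike. Among the genes named here, the differences furthest from 0 relative to their error included Lad1 (-2.83 ± 0.61, limma adjusted p = 0.062), Kcnj8, a potassium channel subunit (2.44 ± 0.49, adjusted p = 0.0611), and Nr4a2 (-2.07 ± 0.49, adjusted p = 0.0911). The red cell gene Slc4a1, listed at 0 in c-Maf cKO, was as far (adjusted p = 0.0611). Kcnj8 and Slc4a1 met the minimum for testing only through the cDKO libraries, where they are high. Lad1 and Penk met it only through the c-Maf cKO libraries. Entpd1 (-2.26 ± 0.60, adjusted p = 0.134) and Penk (-3.87 ± 1.01, adjusted p = 0.13) had unadjusted p-values of 0.000936 and 0.000822. Penk averaged 0.95 ± 1.12 in cDKO and 21.3 ± 9.39 in c-Maf cKO (SD, n = 3 each), and 31.4 in Prdm1 cKO and 31.7 in wild type. In c-Maf cKO against wild type, which shares the c-Maf cKO libraries with the main comparison, limma called 0 genes higher and 3 lower (0.0283%), with 286 higher and 364 lower at an unadjusted p under 0.05. The 3 genes were Pex10, Prkra and 1810044D09Rik, named after their values were seen.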

How the data were processed

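Bulk RNA sequencing was read from one deposited table, in which the authors give a normalised signal for each gene symbol in each library. Per the submitters' processing notes, TopHat, RSEM and DESeq were used on build mm9; no source used here gives their versions, order or roles. The values are not counts, so depth is unknown and no counting interval or floor is given. Columns were assigned to the 4 genotypes by the genotype in their names and are called by their codes; 0 columns lay outside the 25 libraries, and 0 pairs were identical.

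Values were taken as log2(value + 1). All 25 libraries were fitted in one model of 4 groups by limma (version 3.58.1, R version 4.3.3) with moderated variances, the trend and robust options and no covariate, so that small groups share the estimate of the spread. Genes with at least 1 in 3 or more of the 6 cDKO and c-Maf cKO libraries were tested, and p-values were adjusted by Benjamini-Hochberg over all of them, with a threshold of 0.05. A gene with low values in either group can have met this minimum only through the other group, where it is high. Besides the genes named above for this, Gzmc, Cd244 and Il2ra met it only through c-Maf cKO. Adjusted p-values of genes are limma's throughout. Prdm1 and Maf were also compared by an exact two-sided permutation test over 20 splits. Gene lists (25 of functions, 11 of cell type markers) are described by counts and medians, without a test of the list. The members and lists were chosen with earlier results of these data known. Named were Prdm1 and Maf, the 15 genes with the largest change in each direction among called genes without overlap that have more than a predicted or clone name, and up to 4 called members with the smallest p of each list, or 2 members where none was called. A selection of these is described. Of the Hbb, granzyme, Bcl2a1 and ribosomal protein genes, near-identical copies may share reads. The labels state no strand of counting.

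Alternatives were pseudocounts of 0.1 and 10, no minimum and a minimum of 10, rescaling by median-of-ratios factors or to CD3 genes, the 6 libraries alone, covariates (column set, letter of the library code, marker scores), limma without trend and robust options, and each library left out in turn. Some results are not reported here.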

Additional observations from a re-analysis of the deposited data

How the results depend on the processing

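Against 1228 calls, the fit of the 6 libraries alone gave 755, the column set as covariate 147, the letter of the code 645 and marker scores 729. Leaving out one library gave 502 to 1302 calls. Other pseudocounts, minima, factors and options gave 1004 to 1223 calls, and CD3 rescaling gave 1138. Of the 1228 calls, 599 were kept in the same direction after CD3 rescaling. The fold change of 61 of the 1228 had the opposite sign there, whether called or not. The difference of Prdm1-loss effects, called for 0 genes, was called for 20 with a pseudocount of 0.1, 3 with a pseudocount of 10, 20 without a minimum, 5 with a minimum of 10, 20 with the letter as covariate, 10 without trend and robust options, and 0 to 28 with one library left out (28 without cDKO C2). The cause of these shifts was not tested.

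Rescaling to CD3 genes lifted the median of all genes, and with it turned these medians to positive: IL-10, IL-27 and purine genes 0.22, effector and exhaustion factors 0.17, effector cytokines 0.14, common gamma receptors 0.017, T cell receptor genes 0.35, glycolysis 0.42, heat shock 0.61, Bcl2 family 0.16, cholesterol 0.11, chromatin repressors 0.14, CD8 markers 0.11, dendritic markers 0.16, interferon-stimulated genes 0.52, lectin-like receptors 0.13, and the genes Icos 0.54 and Ldha 0.030. Effector cytokines were also at 0.23 with marker scores and ran from -0.67 (without B11) to 0.13 (without C1) with one library left out; glycolysis was at 0.056 with the column set and ran from -0.40 (without A2) to 0.13 (without C2); heat shock was at 0.011 with median-of-ratios factors, 0.24 with the column set, 0.27 without C2 and 0.11 without B10; chromatin repressors were at 0.027 with the column set. The interferon list ran from -0.21 (without C2) to 0.28 (without C1) and the lectin-like list from -0.68 (without C2) to 0.019 (without B11). Dendritic markers were at 1.58 with marker scores and ran from -1.18 (without B11) to 0.82 (without C1), and erythroid markers and Alas2 at -0.16 with marker scores. Icos was at 0.036 with the letter and 0.19 with marker scores, and ran from -0.395 (without C2) to 0.10 (without A2). The Maf difference ran from -0.395 (without B10) to 0.07 (without C1).

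No paired analysis was possible because the columns carry no replicate numbers, so no replicate block was fitted; the difference of effects was not run on the 6 libraries alone, which lack its other groups. Depth is unknown, which leaves the error of low values unmeasured.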
